A study of Saccharomyces cerevisiae with 50 samples.

Results

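The Rpl26 deletion strains are budding yeast strains that lack copies of RPL26A or RPL26B, the paralogous genes for the ribosomal protein Rpl26 of the large (60S) subunit. They were picked by their labels alone, and hold 7 of the 50 libraries of the series, 4 of mRNA and 3 of ribosome footprints. The double deletion rpl26a rpl26b and the single deletions rpl26a and rpl26b each gave 1 library per assay. The double heterozygote rpl26a/+ rpl26b/+ was used for mRNA only, because its footprint library did not match its label. They were set against the other 60S strains, which are all other columns with a large-subunit gene in the title and have 10 libraries per assay. These are rpl7a, rpl24a, rpl24b, rpl38, rpl40a, rpl40b, rpl41a and rpl41b, each with 1 gene or copy deleted, and the double heterozygotes rpl7a/+ rpl7b/+ and rpl40a/+ rpl40b/+. The wild type had 2 libraries per assay, both under 1 strain number. All strains were of the SK1 background and grew with shaking at 30 °C in YEPD with 2% glucose until they were collected in exponential phase at an OD600 of 0.6. The series asked which expression changes in ribosomal protein mutants follow the total level of translation. The titles with /+ mark heterozygotes, which are diploid, and the ploidy of the other strains is not given in the labels. Mating type, selection markers and the number of clones per strain are not given there either, and growth rates were not used here.

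Rpl26 (uL24) sits on the solvent side of the large subunit next to the opening of the polypeptide exit tunnel, where nascent chains emerge and where chaperones, processing enzymes and the signal recognition particle dock. In yeast it joins early pre-60S particles and is unusual among large-subunit proteins in that cells without it can live. Most yeast ribosomal proteins are made from a pair of paralogous genes, so a single deletion leaves a copy that encodes the same or nearly the same protein. Ribosome profiling sequences the stretches of mRNA that ribosomes protect from nuclease, and sequencing of mRNA from the same strain gives the amount of template.

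Values are given as RPKM, the reads per kilobase of coding length and M reads of the library (M, 1000000). Depth was 1.352 to 2.139 M reads in the Rpl26 mRNA libraries, 1.1 to 3.506 M in those of the other 60S strains and 1.356 to 1.541 M in wild type. Footprint libraries held 4.518 to 5.907 M reads in Rpl26 strains, 5.119 to 8.571 M in the other 60S strains and 5.275 to 6.049 M in wild type. In each of the 15 strains compared in both assays (wild-type samples counted as strains), the footprint library correlated best with its own mRNA library over 2046 genes, at 0.611 for rpl26a, 0.288 for rpl26b and 0.355 for the double deletion. The footprint library labelled rpl26a/+ rpl26b/+ correlated at 0.0495 with its own mRNA, which ranked 5 among the mRNA libraries, and most with rpl38 at 0.188. In that library RPS0A stood at 28.7 RPKM, against 2479 to 3030 RPKM in the footprint libraries of the other 60S strains, while RPL26A stood at 3082 and RPL26B at 6535 RPKM. Each strain is 1 library per assay, so each p-value rests on how strains differ from one another, and the labels do not say that strains were grown as separate cultures. Markers of the sexual cycle were mostly low: 2 of 15 mating genes and 1 of 12 early meiotic genes passed the minimum level in mRNA. STE3 and MFA1 had no mRNA reads in the double, rpl26a or rpl26b library. STE2 did have mRNA in each of them, where its log2 footprint minus log2 mRNA level was -2.80, -2.35 and -2.14.

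The deleted genes followed the labels in every Rpl26 library used. RPL26A mRNA was at 21.2 RPKM in the double deletion (13 reads), 9.79 RPKM in rpl26a (5 reads), 1782 RPKM in rpl26b and 915 RPKM in the double heterozygote. In the other 60S strains RPL26A mRNA had a lowest level of 1407, a median of 1681 and a highest of 1736 RPKM, and wild type had 1832 and 1699.9 RPKM. RPL26B mRNA was at 42.4 RPKM in the double deletion (26 reads), 3235 RPKM in rpl26a, 26 RPKM in rpl26b (18 reads) and 1582 RPKM in the double heterozygote. In the other 60S strains RPL26B mRNA ranged from 2886 to 3591 RPKM around a median of 3087 RPKM, with 3203 and 3041 RPKM in wild type. Each deleted copy thus lay far below every strain that kept it, and the heterozygote lay between, at 54.5% of the other 60S median for RPL26A and 51.2% for RPL26B. In the single deletions, the residual reads on the deleted gene may belong to the surviving paralog or to other sequence. The double deletion keeps no paralog, and its residual reads were no fewer (13 on RPL26A, 26 on RPL26B). The source of these reads was not tested, since how reads matching more than 1 gene were handled is not stated in the sources used here.

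The remaining copy stood near its usual level in both single deletions. RPL26B mRNA in rpl26a was at 105% of the median of the other 60S strains, and RPL26A mRNA in rpl26b at 106%, just above the highest of these strains. For footprints, RPL26B in rpl26a was at 6324 RPKM, or 96.1% of the other 60S median of 6583 RPKM (range 6331 to 7254 RPKM), and RPL26A in rpl26b was at 2779 RPKM, or 89.4% of the median of 3109.9 RPKM (range 2695 to 3593 RPKM). Footprints on the deleted copies were at 30.7 RPKM for RPL26A and 79.2 RPKM for RPL26B in the double deletion, at 86.2 RPKM for RPL26A in rpl26a and at 31.1 RPKM for RPL26B in rpl26b. RPL26B was the more strongly read copy, so that footprints per length on the surviving gene differed between the single deletions, 6324 RPKM in rpl26a against 2779 RPKM in rpl26b.

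**Figure D1:**
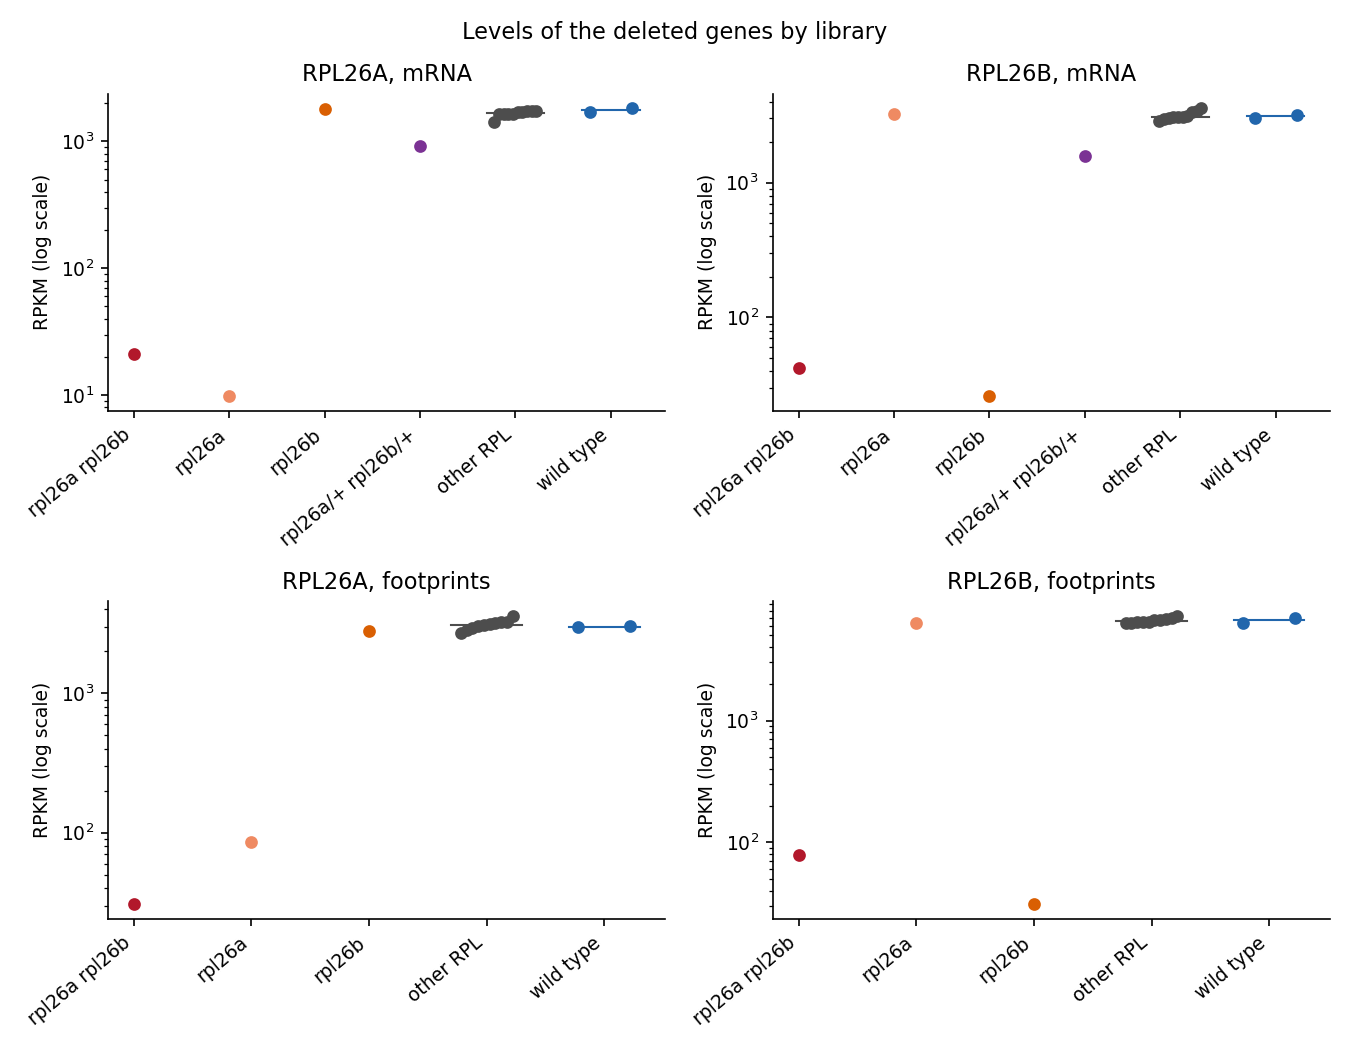
Levels of RPL26A and RPL26B in mRNA and footprints, in RPKM on a log axis; each point is 1 library and the line is the group median. Each deleted copy lies between 9.79 and 86.2 RPKM, and the double heterozygote lies between the deletions and the other 60S strains in mRNA. The surviving copy of each single deletion lies within or just outside the range of the other 60S strains.

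Across all genes, the Rpl26 strains as a group were not separable in mRNA from the other 60S strains by the test used. With limma on log2(RPKM + 1), 0 of 5105 genes passed a Benjamini-Hochberg adjusted p under 0.05 (percent called 0%, smallest adjusted p = 0.665), and voom on the recovered reads also called 0. At an unadjusted p under 0.05 there were 268 genes (5.25%), 52 with higher levels in Rpl26 strains (1.02%) and 216 with lower (4.23%), and voom gave 247. This split depended on scaling, with 116 higher and 170 lower by median-of-ratios scaling and 101 and 135 by quantile normalization. The median difference over all genes was -0.02 on the log2 scale, with a median SE of 0.114. In bulk libraries such as these, fewer cells expressing a gene and less RNA per cell cannot be told apart.

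The largest difference among the leading genes was in PTR2, which encodes the main importer of dipeptides and tripeptides. PTR2 mRNA was at 3.33 RPKM in the double deletion, 2.91 RPKM in rpl26a, 1.34 RPKM in rpl26b and 5.51 RPKM in the double heterozygote, from 11, 8, 5 and 13 reads. In the other 60S strains PTR2 mRNA had a lowest level of 5.77 RPKM in rpl7a, a median of 18.4 RPKM and a highest of 96.5 RPKM in rpl40a/+ rpl40b/+, and wild type had 20.3 and 19.7 RPKM. All 4 Rpl26 libraries lay below all other 60S libraries, though the heterozygote came close to rpl7a. PTR2 footprints were at 1.65 RPKM in the double deletion, 1.26 RPKM in rpl26a and 0.587 RPKM in rpl26b, from 13, 13 and 6 reads. The other 60S strains ranged from 1.90 RPKM in rpl7a to 64.8 RPKM, with a median of 10.1 RPKM, and wild type had 16.3 and 9.37 RPKM. Here too no Rpl26 library reached the lowest of the others, and PTR2 was the 1 gene of 4209 tested in both assays (0.0238%) whose groups were apart in both. The difference in PTR2 was -2.52 in mRNA (SE 0.526, adjusted p = 0.665 by limma) and -2.63 in footprints (SE 0.646, adjusted p = 0.889), neither past the test. Adding 5 RPKM in place of 1 before the log gave -1.56 in footprints, and adding the mismatched heterozygote library gave -1.53. Against wild type the differences were -2.39 in mRNA (SE 0.77) and -2.66 in footprints (SE 0.895). Footprints per mRNA of PTR2 did not separate the groups, at log2 values of -0.71, -0.79 and -0.56 in the double, rpl26a and rpl26b strains against -1.22 to -0.48 in the other 60S strains.

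CUP9 encodes the homeodomain repressor of PTR2, which is removed by the ubiquitin ligase Ubr1 when dipeptides bind that ligase. CUP9 mRNA was at 68.1 RPKM in the double deletion, 58.9 RPKM in rpl26a, 70.6 RPKM in rpl26b and 55.8 RPKM in the double heterozygote, against 68.6 RPKM in rpl41a, the lowest, and a median of 96.6 and a highest level of 120.0 RPKM among the other 60S strains. The next lowest of these had 81.5 RPKM, and wild type had 96.8 and 105 RPKM, so that apart from rpl41a all other libraries lay above the Rpl26 range. The log2 difference in CUP9 mRNA was -0.59 (SE 0.127, adjusted p = 0.665 by limma), in the same direction as that of the gene it represses. CUP9 footprints were at 78.4, 75.3 and 83.8 RPKM in the double, rpl26a and rpl26b strains, against 77.5 to 104 RPKM in the other 60S strains, a log2 difference of -0.22 (SE 0.102, adjusted p = 0.933), and the groups overlapped.

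Other genes of peptide uptake were looked up after the PTR2 values were seen. OPT1, a transporter of longer peptides, was at 117, 124, 117 and 125 RPKM of mRNA in the double, rpl26a, rpl26b and heterozygous strains, against 96.5 to 115 RPKM in the other 60S strains with a median of 107 RPKM. These groups did not overlap, although wild type had 108 and 131 RPKM and the log2 difference was 0.17 (SE 0.063, adjusted p = 0.921 by limma). OPT2, its paralog, was at 16.5, 20.05, 18.9 and 21.6 RPKM of mRNA, against 20.4 to 30.1 RPKM in the other 60S strains, a log2 difference of -0.35 (SE 0.108, adjusted p = 0.774). UBR1 mRNA differed by 0.00 (SE 0.0644), with 66.6 to 72.9 RPKM in Rpl26 strains against 64.2 to 81.3 RPKM in the other 60S strains.

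**Figure D2:**
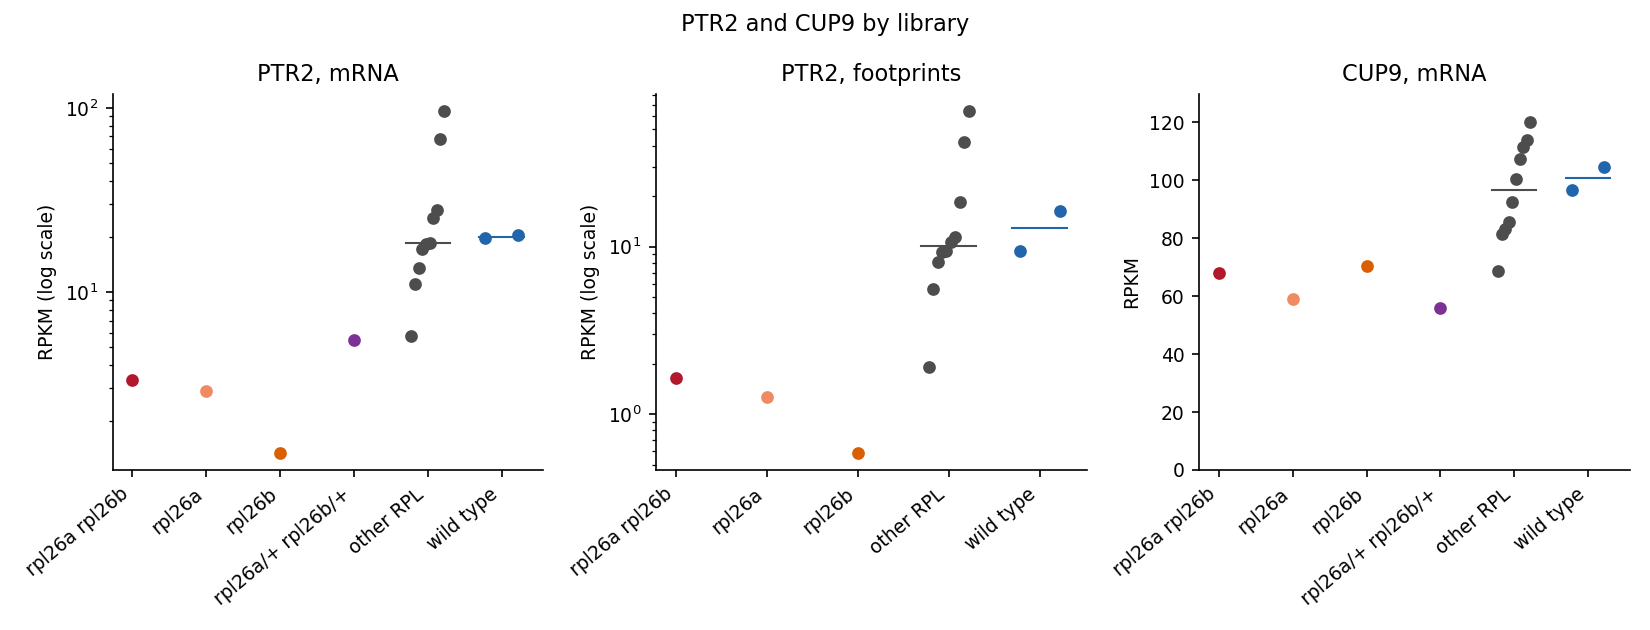
Levels of PTR2 in mRNA and footprints (RPKM, log axis) and of CUP9 in mRNA (RPKM, linear axis); each point is 1 library and the line is the group median. PTR2 in every Rpl26 library lies below the lowest other 60S library (5.77 RPKM in mRNA and 1.90 RPKM in footprints, both rpl7a), and CUP9 at 55.8 to 70.6 RPKM overlaps the others only at rpl41a.

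Apart from YMR030W-A, the other genes with the smallest p-values in mRNA differed by less than 2 times. No overlap between groups was seen for 2 genes with higher mRNA in Rpl26 strains (0.0392% of those tested) and 11 with lower (0.215%). The higher genes were OPT1 and IES6, a subunit of the INO80 chromatin remodeller, which had 159, 147, 147 and 138 RPKM in the double, rpl26a, rpl26b and heterozygous strains, against 104 to 133 RPKM in the other 60S strains and 119 and 129 RPKM in wild type (log2 difference 0.26, SE 0.0784). LAP2, an aminopeptidase related to leukotriene A4 hydrolases, had 45.9, 44.1, 39.7 and 43.9 RPKM against 48.8 to 62.6 RPKM, with a median of 54.2 RPKM in the other 60S strains (-0.32, SE 0.0731). GRX4, a glutaredoxin that takes part in iron sensing, had 49.3, 49.8, 43.6 and 38.4 RPKM against 49.9 to 75 RPKM (-0.39, SE 0.0965). For these genes every Rpl26 library lay on 1 side of every other 60S library, by a margin that for GRX4 was close to 0. RSM27, a mitochondrial ribosomal protein, had 128, 144, 127 and 127 RPKM against 76.6 to 128 RPKM (0.36, SE 0.103), and RPC19, a subunit shared by RNA polymerases I and III, had 209 to 246 RPKM against 170.0 to 229 RPKM (log2 difference 0.24). YMR030W-A, a small open reading frame, had 18.3, 30.2, 34.4 and 25.6 RPKM against 7.87 to 25.7 RPKM (1.07, SE 0.265) from 2 to 17 reads per library. YJL215C, absent from the reference gene table, had 31.7, 27.5, 31.2 and 22.2 RPKM against 12.1 to 27.0 RPKM (0.49), and YLR046C had 16.8, 13.5, 11.2 and 8.84 RPKM against 15.8 to 24.8 RPKM (-0.61). Adjusted p-values of the genes in this paragraph, by limma, lay at 0.665 or above.

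In footprints, too, 0 of 4230 genes passed the test between Rpl26 and other 60S strains (percent called 0%). The smallest adjusted p was 0.247, for RPL26A and RPL26B, and voom called 0. At an unadjusted p under 0.05 there were 202 genes (4.78%), of which 164 were higher in Rpl26 strains (3.88%) and 38 lower (0.898%), and voom gave 193. The balance was even with other scalings, at 120 higher and 114 lower by median-of-ratios scaling and 98 and 103 by quantile normalization. Groups did not overlap for 31 genes with higher levels in Rpl26 strains (0.733%) and 11 with lower (0.26%).

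BAS1, a transcription factor of purine and histidine synthesis genes, led the genes with more footprints. It was at 23.2 RPKM in the double deletion, 21.1 RPKM in rpl26a and 22.3 RPKM in rpl26b, against 12.9, 15.2 and 19.9 RPKM as the lowest, median and highest of the other 60S strains, and 13.1 and 14.2 RPKM in wild type. All 3 Rpl26 libraries were above every other library, with a log2 difference of 0.48 (SE 0.113, adjusted p = 0.806 by limma). BAS1 mRNA did not separate in this way, at 36.7, 53.6, 37.6 and 42.0 RPKM in the double, rpl26a, rpl26b and heterozygous strains against 36.6 to 48.5 RPKM. PHO87, a low-affinity phosphate transporter, had 29.5, 25.2 and 29.0 RPKM of footprints against 18.4 to 25.1 RPKM (0.38). MNN10, a Golgi mannosyltransferase subunit, had 80.5, 81.8 and 94.3 RPKM against 58.8 to 76.8 RPKM (0.33), and DOT1, the histone methyltransferase that modifies the nucleosome core, had 16.9, 15.8 and 14.2 RPKM against 10.7 to 13.9 RPKM (0.33). YML018C, a predicted membrane protein, had 50.1, 45.1 and 45.1 RPKM against 25.5 to 39.8 RPKM, with 38.2 and 41.8 RPKM in wild type (0.46). For all of these the lowest Rpl26 library stood above the highest other 60S library.

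Among genes with fewer footprints in Rpl26 strains, several are short. HYP2, the translation elongation factor eIF5A, had 11643 RPKM in the double deletion, 12799 RPKM in rpl26a and 13087 RPKM in rpl26b, against 13698, 14620.1 and 15939.7 RPKM as lowest, median and highest of the other 60S strains. Wild type had 15903 and 13293 RPKM, and the log2 difference of HYP2 from the other 60S strains was -0.23 (SE 0.0647, adjusted p = 0.933 by limma). SKP1, a core subunit of SCF ubiquitin ligases, had 252, 269.9 and 285 RPKM against 294 to 347 RPKM (-0.24), and ACP1, the mitochondrial acyl carrier protein, had 667, 854 and 790.0 RPKM against 861 to 999 RPKM (-0.25). SHY1, an assembly factor of cytochrome c oxidase, had 15.4, 22 and 17.1 RPKM against 21.0 to 24.3 RPKM (-0.33), and of these genes it alone overlapped, through rpl26a.

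The footprint difference was larger in longer genes. Genes tested in footprints were ordered by coding length and cut into 4 classes of 1053 to 1059 genes. The median log2 difference was -0.02 in the shortest class (78 to 681 nt), 0.02 in the next (684 to 1149 nt), 0.08 in the third class (1152 to 1764 nt) and 0.14 in the longest (1767 to 14733 nt). The share of genes with a positive difference was 43.3%, 58.2%, 76.2% and 93.4% along the same classes, and 67.7% over all genes. In mRNA the classes had medians of -0.01, -0.03, -0.03 and -0.02, with no such trend.

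Within single libraries, the longest minus the shortest class, taken as the difference of the median log2 deviations from the other 60S median, was 0.20 in the double deletion, 0.09 in rpl26a and 0.18 in rpl26b. The other 60S strains ranged from -0.13 in rpl40a to 0.13 in rpl38 with a median of -0.01, and wild type had -0.10 and 0.03. The double deletion and rpl26b lay above all other libraries, whereas rpl26a lay inside the range of the other 60S strains, below rpl38 and rpl40b (0.116). The mean was 0.156 ± 0.0618 in Rpl26 strains (SD, n = 3) and -0.0059 ± 0.083 in the other 60S strains (SD, n = 10), and the difference of 0.162 had p = 0.01399 in an exact two-sided permutation test (286 arrangements). The same measure in mRNA differed by -0.0122 (exact permutation p = 0.7473, 1001 arrangements). The trend was noticed in these data and then tested on them, so the p-value describes it and is no independent evidence. Fragment size, digestion and read position cannot be read from gene-level values, and their part in the trend was not tested.

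**Figure D3:**
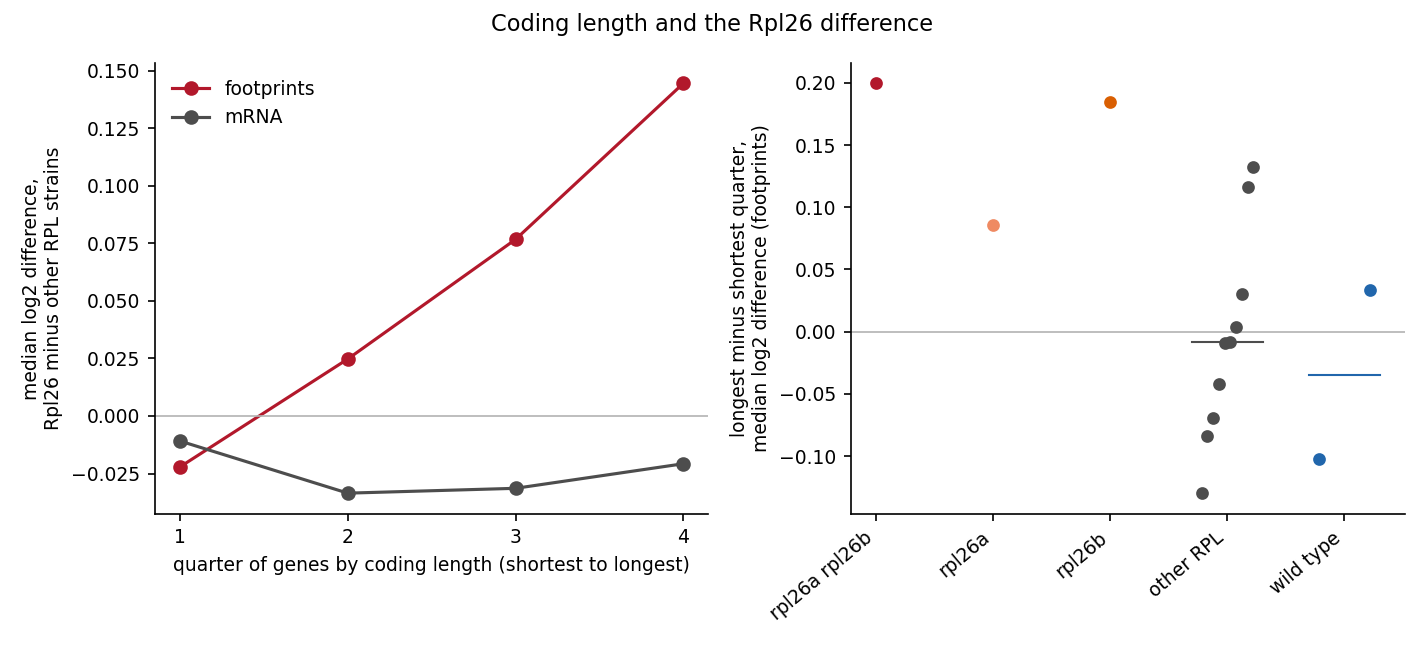
Left, median log2 difference of Rpl26 minus other 60S strains in 4 classes of genes by coding length, for footprints and mRNA. Right, the longest minus the shortest class in each footprint library, with lines at group medians; footprint medians go from -0.02 to 0.14 with length, and the double deletion (0.20) and rpl26b (0.18) lie above all other libraries while rpl26a (0.09) does not.

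Footprints per mRNA, or translational efficiency, was the log2 footprint level minus the log2 mRNA level of the same strain. Between Rpl26 and other 60S strains 0 of 4209 genes passed limma's test (percent called 0%, smallest adjusted p = 0.443, no voom run for this measure). At an unadjusted p under 0.05 there were 436 genes (10.4%), 398 with higher (9.46%) and 38 with lower efficiency (0.903%), and the median over all genes was 0.08 with a median SE of 0.136. With median-of-ratios scaling the median was -0.02, with 167 higher and 183 lower. The difference carries the length trend of the footprints: its length classes had medians of -0.02, 0.06, 0.10 and 0.17, with 91.5% of the longest genes positive. Groups did not overlap for 65 genes in the higher direction (1.54%) and 8 in the lower (0.19%).

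The 10 genes with the smallest p-values in efficiency, 5 each way, differed by less than 2 times. OCH1, the Golgi mannosyltransferase that starts outer chains, had log2 efficiencies of -0.66 in the double deletion, -0.97 in rpl26a and -0.56 in rpl26b, against -1.52 to -1.08 in the other 60S strains (difference 0.51). DPM1, dolichol phosphate mannose synthase, had 0.64, 0.69 and 0.81 against 0.85 to 1.28 (-0.32, SE 0.0964). DOT1 had -0.27, -0.36 and -0.37 against -1.14 to -0.61 (0.52, SE 0.128), in the same direction as its footprints, which enter the efficiency. VHT1, the biotin importer, had -1.07, -1.08 and -0.95 against -1.51 to -1.26 (0.35, SE 0.0843), and GEP7 had 0.62, 0.74 and 0.53 against -0.26 to 0.44 (0.57, SE 0.123). These 5 genes separated the groups without overlap. IRC19 had -0.09, 0.52 and 0.63 against -0.74 to -0.00 (0.71, SE 0.161), where the double deletion fell within the others. On the lower side RSM27 had 1.06, 1.01 and 0.78 against 1.00 to 1.77 (-0.38), and YLR361C-A had 0.57, 0.47 and 0.66 against 0.55 to 1.75 (-0.67). TES1, a peroxisomal thioesterase, had -0.07, -0.77 and -0.79 against -0.26 to 0.13 (-0.49). NNR2 had 0.44, -0.12 and 0.14 against 0.18 to 0.79 (-0.41). For TES1 and NNR2 the double deletion fell within the others, and the single deletions lay below them. All 10 had an adjusted p of 0.443 by limma.

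Proteins that line the exit tunnel or surround its opening were examined as a list of 12 genes, RPL4A, RPL4B, RPL17A, RPL17B, RPL19A, RPL19B, RPL25, RPL31A, RPL31B, RPL35A, RPL35B and RPL39. None passed the adjusted test. In mRNA 8 of 12 were positive with a median log2 difference of 0.06 against -0.02 over all genes, and 2 were higher at an unadjusted p under 0.05, where 1.02% of all genes were. These were RPL31A, with 4425, 4243, 4606 and 4703 RPKM in the double, rpl26a, rpl26b and heterozygous strains against 3877 to 4559 RPKM (0.14, SE 0.05), and RPL31B (0.18, SE 0.065), each with an adjusted p of 0.89 by limma. In footprints 10 of 12 were negative with a median of -0.05 against 0.06 over all genes. That median was -0.12 with median-of-ratios scaling (11 of 12 negative, -0.00 over all genes), -0.01 with quantile normalization (6 of 12, 0.01 over all genes) and 0.00 with the mismatched heterozygote library included (6 of 12), so its direction is not settled. RPL35A had 342, 428 and 450.1 RPKM of footprints in the double, rpl26a and rpl26b strains against 404 to 609.9 RPKM (-0.23, SE 0.123), RPL35B had 219, 251 and 277 RPKM against 211 to 363 RPKM (-0.20), RPL4B differed by -0.13, and RPL39, which lines the tunnel, had 12066, 12633 and 13260.3 RPKM against 10040.5 to 13348 RPKM (0.13). In efficiency 12 of 12 were negative with a median of -0.10 against 0.08 over all genes, the lowest being RPL17B and RPL31B at -0.17 each, RPL19B at -0.15 and RPL25 at -0.13. Most of these genes are short and have near-identical copies, between which the authors' counting could have divided reads.

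Factors that meet the nascent chain at the tunnel opening were examined as 23 genes of the nascent polypeptide-associated complex, the ribosome-bound chaperones, the signal recognition particle and its receptor, methionine aminopeptidases, the NatA acetyltransferase and the Sec61 channel. Their medians were 0.03 in mRNA, 0.02 in footprints and -0.01 in efficiency, against -0.02, 0.06 and 0.08 over all genes. The footprint median took its sign from the scaling, at -0.04 by median-of-ratios scaling and 0.05 by quantile normalization. EGD2, the alpha subunit of the nascent polypeptide-associated complex, had 2949, 2696 and 2667 RPKM of footprints in the double, rpl26a and rpl26b strains against 2940.4 to 3998 RPKM in the other 60S strains (-0.23, SE 0.081, adjusted p = 0.933 by limma), with 2848 and 2752 RPKM in wild type. The double deletion alone reached the lower edge of the other 60S strains, and wild type lay between the single deletions and that edge. BTT1, the minor beta subunit of that complex, had 20.3, 16.3, 20.4 and 19.0 RPKM of mRNA against 6.99 to 22.4 RPKM (0.49, SE 0.217), while its efficiency differed by -0.43. SRP68, a subunit of the signal recognition particle, had 99.5, 98 and 113 RPKM of footprints against 63.1 to 102 RPKM (0.23), and its efficiency differed by 0.30 (SE 0.103, adjusted p = 0.443). In mRNA NAT5 differed by -0.16, MAP2 by 0.16 and SEC65 by 0.12.

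Over the large-subunit genes deleted in none of these strains (70 of 70 tested), the medians were 0.03 in mRNA, -0.06 in footprints and -0.10 in efficiency, against -0.02, 0.06 and 0.08 over all genes. The footprint median was -0.12 with median-of-ratios scaling (69 of 70 negative), -0.01 with quantile normalization (37 of 70) and -0.02 with the mismatched heterozygote library. In efficiency 68 of the 70 were negative and 4 were lower at an unadjusted p under 0.05, where the share of all genes lower was 0.903%. Most ribosomal protein genes are short, and the shortest length class as a whole had an efficiency median of -0.02. The 57 small-subunit genes had medians of 0.03, -0.01 and -0.06, with 45 negative in efficiency. The large-subunit genes took 12.9%, 13.3% and 13.4% of footprint reads in the double, rpl26a and rpl26b strains against 12.6% to 14.6% in the other 60S strains, and 7.56%, 7.40%, 7.63% and 7.23% of mRNA reads in the double, rpl26a, rpl26b and heterozygous strains against 6.78% to 7.95%, so each Rpl26 library lay inside the range of the others. Over all genes, 67.7% had a positive footprint difference and 3.88% were higher at an unadjusted p under 0.05. Nuclear assembly factors of the 60S subunit (55 of 57 tested) had a footprint median of 0.15, with 52 positive and 2 higher at that p. Those of the 40S subunit (54 tested) had a median of 0.12, with 47 positive and 4 higher. With median-of-ratios scaling these medians were 0.08 and 0.05, and without rpl26b they were 0.09 and 0.07. In mRNA their medians were 0.07 and 0.08. Cytoplasmic and export factors of the 60S subunit (18 genes) stood at 0.03 in mRNA and 0.06 in footprints. Factors of stalled-ribosome rescue and quality control (21 genes) were at -0.01 in mRNA, 0.07 in footprints and 0.09 in efficiency, and initiation and elongation factors (39 genes) at 0.02 in mRNA and 0.03 in footprints. None of these genes passed the adjusted test.

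Outside the ribosome, the list with the lowest median in Rpl26 strains, of those examined, was that of general stress genes of the Msn2/4 type. Its mRNA median was -0.31 with 26 of 28 tested genes negative and 9 lower at an unadjusted p under 0.05, where 4.23% of all genes were, and its footprint median was -0.30 with 23 of 24 negative and 3 lower, where 0.898% of all genes were. Without rpl26a the footprint median was -0.15, and without the double deletion -0.46. The 9 were MSC1 (-0.50, SE 0.159), TFS1 (-0.54, SE 0.186), TPS2 (-0.41) and TPS1 (-0.35) of trehalose synthesis, GSY2 of glycogen synthesis (-0.49), GPD1 of glycerol synthesis (-0.27), GRE3, NTH1 and OM45. In the double deletion these genes stood near the other 60S strains. TPS2 mRNA was at 90.8 RPKM in the double deletion, against 58.1 in rpl26a, 70.7 in rpl26b and 63.5 RPKM in the double heterozygote, with 75.3 to 128 RPKM in the other 60S strains. The trehalose gene TSL1 had 41.8 RPKM in the double deletion against 16.1, 27.0 and 13.0 RPKM in those strains, with 16.9 to 72.0 RPKM in the other 60S strains. Per library, the median deviation of the list in mRNA was 0.06 in the double deletion, -0.41 in rpl26a, -0.25 in rpl26b and -0.47 in the double heterozygote, against -0.31 to 0.44 in the other 60S strains and -0.32 and 0.18 in wild type. In footprints it was 0.06, -0.50 and -0.28 in the double, rpl26a and rpl26b strains, against -0.26 to 0.59. The wild-type libraries alone spanned much of that range, and no gene of the list passed the adjusted test.

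Amino acid synthesis genes under Gcn4, the activator of the amino acid starvation response, varied more between strains than the stress genes. In mRNA 34 of 39 tested genes were positive with a median of 0.19, and in footprints 35 of 39 with a median of 0.13. These rested on single libraries: without rpl26a the footprint median was -0.05 with 29 of 39 negative, and the mRNA median was 0.11 without rpl26a and 0.11 without the heterozygote. The footprint median was 0.06 with median-of-ratios scaling and 0.02 with the mismatched heterozygote library. ARG4 mRNA was at 128 RPKM in the double deletion, 307 RPKM in rpl26a, 139 RPKM in rpl26b and 343 RPKM in the double heterozygote, against 55.3 (rpl7a), 96.9 and 659 RPKM (rpl41a) as lowest, median and highest of the other 60S strains and 155 and 247 RPKM in wild type. HIS4 mRNA had 315, 565, 349 and 566 RPKM in the same order of strains, against 181 to 928 RPKM. GCN4 itself, whose translation is held back by upstream reading frames, had 99.1, 208 and 111 RPKM of footprints in the double, rpl26a and rpl26b strains, against 62.7 to 277 RPKM in the other 60S strains and 112 and 125 RPKM in wild type. GCN4 mRNA was flat by comparison, with 1693 to 1764 RPKM in Rpl26 strains against 1562 to 1899 RPKM. The high libraries were thus rpl26a and the heterozygote, while the double deletion and rpl26b lay near the middle of the other 60S strains, and all overlapped the others. ARG4 and HIS4 are also common auxotrophic markers in SK1, and the markers of these strains are not given. Of 10 common marker genes, 6 were tested, with medians of 0.25 in mRNA and 0.22 in footprints, 1 higher in each assay at an unadjusted p under 0.05 (1.02% of all genes in mRNA, 3.88% in footprints), and their part in the Gcn4 values was not tested. Without rpl26a their footprint median was -0.00. URA3 mRNA had 611, 595, 588 and 646 RPKM in the double, rpl26a, rpl26b and heterozygous strains against 219 (rpl7a) to 606 RPKM in the other 60S strains and 596 and 602 RPKM in wild type.

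**Figure D4:**
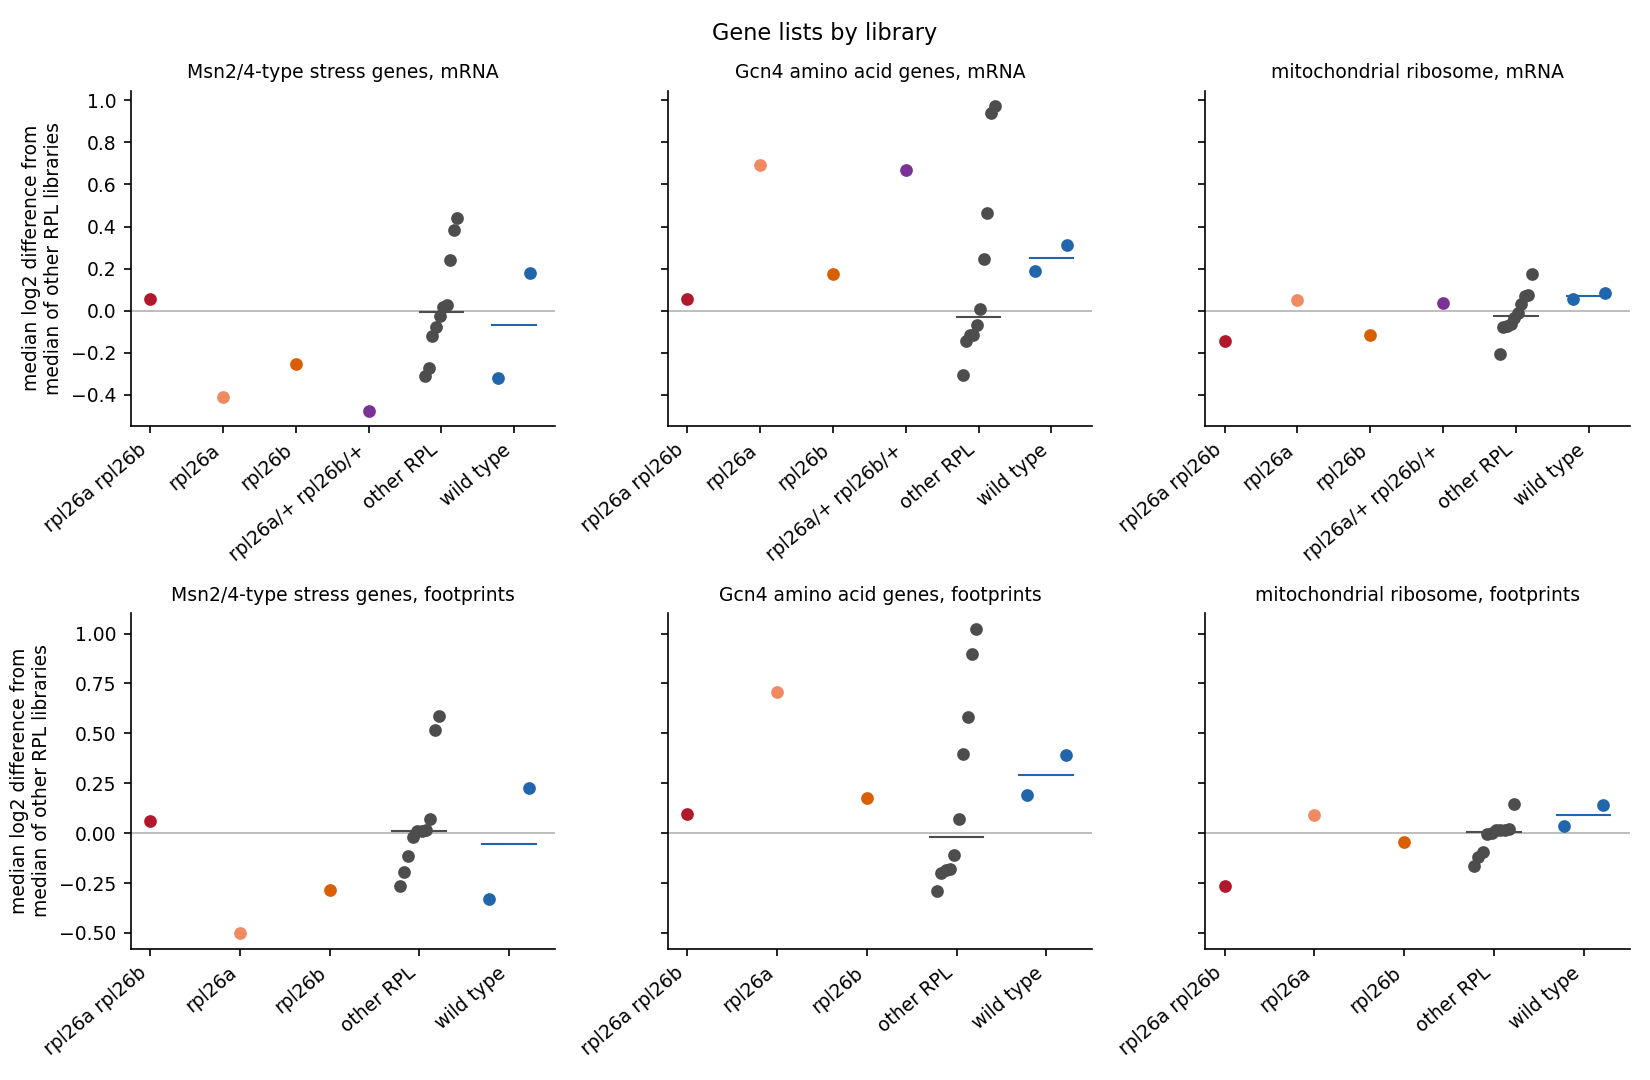
Median log2 deviation of 3 gene lists in each library from the median of the other 60S strains ("other RPL"), for mRNA (top) and footprints (bottom); each point is 1 library and lines are group medians. The stress genes of rpl26a and rpl26b lie at -0.25 to -0.50 with the double deletion at 0.06, Gcn4 genes are high in rpl26a (0.69 and 0.71) and the double heterozygote (0.67), and mitochondrial ribosome footprints of the double deletion lie at -0.26, below the other 60S range.

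Remaining lists moved little. Cell wall genes were negative in 20 of 20 tested mRNAs with a median of -0.11 and 4 lower at an unadjusted p under 0.05, where 4.23% of all genes were, against a footprint median of -0.04. The mRNA median was -0.07 without the heterozygote. Ergosterol genes had 23 of 26 positive in footprints with a median of 0.12 and 3 higher, where 3.88% of all genes were, against 0.00 in mRNA, and the footprint median was 0.05 with median-of-ratios scaling and 0.04 without the double deletion. Purine synthesis genes stood at 0.14 in mRNA and 0.12 in footprints (16 of 17 tested), sulfate and methionine genes at 0.13 and 0.09, heat-shock chaperones at 0.06 and 0.03, the proteasome at -0.02 and 0.06, and nuclear genes of oxidative phosphorylation at -0.03 and -0.08. None of their members passed the adjusted test, and the all-gene medians beside them are -0.02 in mRNA and 0.06 in footprints. Of all genes, 41.6% were positive in mRNA and 67.7% in footprints.

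The double heterozygote, compared alone, had 3 genes past the test against the other 60S strains (0.0588% of genes; 224, or 4.39%, at an unadjusted p under 0.05). All 3 were low-count genes that fell, and voom called 0. COQ21 was listed at 0 reads in the heterozygote against 6.45 to 21.5 RPKM in the other 60S strains, from 1 to 8 reads (adjusted p = 0.0226 by limma). Since 3 reads in the heterozygote would have been 15.7 RPKM, above the mean of 12.6 RPKM of the other 60S strains, no fold change is given for COQ21. YMR316C-B, absent from the reference gene table, was also at 0 against 4.34 to 25.9 RPKM, at least 1.81-fold lower when the heterozygote is put at 3 reads (adjusted p = 0.0226 by limma). MVB12, a subunit of the ESCRT-I sorting complex, had 6.01 RPKM from 2 reads against 21.4 to 44.2 RPKM (-2.25, SE 0.353, adjusted p = 0.0251). The other Rpl26 strains did not share these levels, with COQ21 at 11.2, 27.0 and 19.9 RPKM and MVB12 at 15.0, 25.8 and 24.7 RPKM in the double, rpl26a and rpl26b strains. A single library is set here against 10, with its spread taken from the other groups, and all 3 calls were lost with a minimum of 30 RPKM or with 5 RPKM added before the log. MVB12 was also lost when rpl38, rpl40a/+ rpl40b/+, rpl40b, rpl40a or rpl24a was left out, which left 2 calls.

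Against wild type, 1 gene passed in mRNA (0.0196%; 211, or 4.13%, at an unadjusted p under 0.05; voom 0 and 150). YMR013C-A, an open reading frame absent from the reference gene table, had 11.7, 21.1, 36.4 and 24.7 RPKM in the double, rpl26a, rpl26b and heterozygous strains from 2 to 7 reads, against 0 in both wild-type libraries (adjusted p = 0.0239 by limma). With wild type put at 3 reads per library, the mean of 23.5 RPKM in Rpl26 strains was at least 1.02-fold higher, and the call was lost without rpl26a, rpl26b, the heterozygote or wild-type replicate 1. The other 60S strains had 4.74 to 56.2 RPKM of YMR013C-A and also passed against wild type (adjusted p = 0.0218 by limma), so the call is not particular to Rpl26. It concerns mRNA only: YMR013C-A footprints were present in wild type, where log2 efficiency was 4.93 and 3.35 with mRNA at 0. In the double, rpl26a and rpl26b strains that efficiency was 0.31, -0.46 and -0.44. In footprints 0 genes passed against wild type (241 unadjusted, 5.7%; voom 0 and 218), and 0 in efficiency (406 unadjusted, 9.65%).

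The double deletion, the only strain here without any RPL26 gene, was next set against the single deletions. As 1 library per assay it has no spread of its own, and the test takes the spread of the other groups. With limma 0 of 5105 genes passed in mRNA (91 or 1.78% at an unadjusted p under 0.05, 49 higher or 0.96% and 42 lower or 0.823%; voom 0 and 68; smallest adjusted p = 0.649), 0 of 4230 in footprints (141 or 3.33%, 65 or 1.54% and 76 or 1.8%; voom 0 and 113; smallest 0.281) and 0 of 4209 in efficiency (200 or 4.75%, 81 or 1.92% and 119 or 2.83%; smallest 0.698). The median SE of 0.238 in mRNA and 0.249 in footprints was about double that of the group comparison, so differences under about 0.5 on the log2 scale lay within 2 SE.

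In mRNA the gene with the smallest p was YBL029C-A, a small protein of unknown function, at 84.5 RPKM in the double deletion against 28.2 in rpl26a and 29.1 RPKM in rpl26b (log2 1.53, SE 0.304, adjusted p = 0.649 by limma). The heterozygote had 26.3 RPKM of YBL029C-A, the other 60S strains 36.0 to 64.1 RPKM and wild type 55.7 and 69.2 RPKM, so that the double deletion lay above and the remaining Rpl26 strains below all others. SWC4, a subunit of the NuA4 and SWR1 chromatin complexes, had 43.9 RPKM in the double deletion against 29.1 and 26.3 RPKM in the single deletions, with 36.6 to 44.1 RPKM in the other 60S strains (0.65, SE 0.138). TVP15 of Golgi vesicles had 82.4 RPKM in the double deletion against 37.5 and 52.8 RPKM (0.87), FPY1 had 51.1 against 32.3 and 26.9 RPKM (0.77), and the mannosyltransferase gene KTR4 had 101 against 67.4 and 74.2 RPKM (0.51). On the lower side, MRPL36 of the mitochondrial large ribosomal subunit had 74.7 RPKM in the double deletion against 119 and 143 RPKM in the single deletions, and 98.1 to 130.4 RPKM in the other 60S strains (-0.80, SE 0.173). BUB2 of the mitotic exit checkpoint had 8.59 against 16.2 and 18.5 RPKM (-0.93), MSS18, which takes part in splicing of mitochondrial COX1, had 4.24 against 10.2 and 11.9 RPKM (-1.20), MCO12 had 41.8 against 71.3 and 83.8 RPKM (-0.87), and YNL146W had 6.52 against 20.9 and 15.4 RPKM (-1.33).

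In footprints YCL041C led, an open reading frame absent from the reference gene table. It had 1554 RPKM in the double deletion (2970 reads) against 722 RPKM in rpl26a (1803 reads) and 469 RPKM in rpl26b (1160 reads), a log2 difference of 1.42 (SE 0.261, adjusted p = 0.281 by limma). The other 60S strains ranged from 519 to 788 RPKM with a median of 618 RPKM, and wild type had 506 and 669.8 RPKM, so that the double deletion lay above and rpl26b below all of them. YCL041C mRNA was alike, at 179.9 RPKM in the double deletion against 171 and 175 RPKM in the single deletions. Against the other 60S strains its footprints in the double deletion differed by 1.32 (SE 0.224, adjusted p = 0.0587), not past the test, and the only gene past it in that comparison was the deleted RPL26A (1 of 4230, 0.0236%; 239 unadjusted, 5.65%), while voom called 1, YCL041C. Without rpl26a, YCL041C passed in the double against single comparison, at 1.73 (adjusted p = 0.0184).

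The next genes with more footprints in the double deletion also stood outside the other 60S strains. PMP3, a small plasma membrane proteolipid, had 7496 RPKM against 4384 and 4238 RPKM in the single deletions and 4426 to 6623 RPKM in the other 60S strains (0.80), with mRNA of 1262 RPKM against 1268 and 1320.4 RPKM. YSY6, a small protein of the secretory pathway, had 1251 RPKM against 778 and 716 RPKM (0.74), with 649 to 914 RPKM in the other 60S strains. DYN2, the dynein light chain, had 311 RPKM against 194 and 189 RPKM (0.70), with 197 to 262 RPKM in the other 60S strains, and YIL141W, absent from the reference gene table, had 31.5 RPKM against 13.3 and 11.4 RPKM (1.29), with 10.2 to 21.3 RPKM in the other 60S strains. For each of these the double deletion lay above every library of the other 60S strains. On the lower side YGL039W, an oxidoreductase, had 8.97 RPKM in the double deletion against 20.4 and 18 RPKM in the single deletions and 13.0 to 18.2 RPKM in the other 60S strains (-1.02, SE 0.208, adjusted p = 0.394 by limma). CWC27 of the spliceosome had 11 RPKM against 17.2 and 22.2 RPKM (-0.78), and SPT3 of the SAGA coactivator had 13.7 RPKM against 23.6 and 23.3 RPKM (-0.73).

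The mitochondrial ribosome, which makes the few proteins encoded in mitochondrial DNA, had most of its nuclear genes on the lower side in the double deletion. Of 68 genes, 61 had negative footprint differences from the single deletions, with a median of -0.25 against 0.01 over all genes, and 14 were lower at an unadjusted p under 0.05, where 1.8% of all genes were. None passed the adjusted test. MRPL24 had 63.0 RPKM of footprints in the double deletion against 101 in rpl26a and 107 RPKM in rpl26b, with 86.8 to 113 RPKM in the other 60S strains (-0.71). MRPS9 had 96.6 RPKM against 148 and 149.8 RPKM, with 115 to 153 RPKM in the other 60S strains (-0.62). MRPL31 had 98.1 RPKM against 182 and 149 RPKM, with 122 to 181 RPKM in the other 60S strains (-0.74, SE 0.206), while MRPL31 mRNA was at 126 RPKM against 117 and 128 RPKM. In these genes the double deletion lay below every other 60S library. The list's mRNA median was -0.10 with 49 of 68 negative and 3 lower, where 0.823% of all genes were, and its efficiency median -0.17 with 7 lower and 1 higher, against 2.83% and 1.92% of all genes. Without rpl26a the mRNA median was -0.03 and without rpl26b -0.17, while the footprint medians were -0.22 and -0.30. Per library, the footprint median of the list was -0.26 in the double deletion, 0.09 in rpl26a and -0.04 in rpl26b, against -0.16 to 0.15 in the other 60S strains, and in mRNA it was -0.15, 0.05 and -0.12, with 0.04 in the heterozygote, against -0.21 to 0.18. The footprint value of the double deletion was thus outside the other 60S strains and its mRNA value inside.

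Footprints per mRNA is computed from the same footprint and mRNA values, so it is no independent repeat of these differences. YCL041C had a log2 efficiency of 3.10 in the double deletion against 2.07 and 1.42 in the single deletions (1.36), and PMP3 had 2.57 against 1.79 and 1.68 (0.83). YEL045C, absent from the reference gene table, differed by 1.86, BUB2 by 1.26 and NMA2, an enzyme of NAD synthesis, by 0.72. For BUB2 the mRNA, which is subtracted, differed by -0.93. MIX14, a protein of the mitochondrial intermembrane space, had 0.50 in the double deletion against 1.63 and 2.36 (-1.49, SE 0.312). YBL029C-A had 0.11 against 1.20 and 1.45 (-1.21), and its mRNA, which is subtracted, differed by 1.53. GID12 differed by -0.93, SNF7 of the ESCRT-III complex by -0.68 and SDH2, the iron-sulfur subunit of succinate dehydrogenase, by -0.58. Adjusted p-values by limma lay from 0.698 to 0.844 for these genes.

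Several lists had nearly all members on 1 side between the double and single deletions. Stress genes had medians of 0.43 in mRNA (26 of 28 positive) and 0.47 in footprints (22 of 24 positive), and Gcn4 genes -0.29 and -0.34, with 39 of 39 negative in each assay, against all-gene medians of 0.02 and 0.01. Against 1 single deletion at a time, the Gcn4 medians were -0.07 in mRNA and -0.08 in footprints without rpl26a, and -0.56 and -0.62 without rpl26b, so that most of the difference lay between the double deletion and rpl26a. The stress medians were 0.23 and 0.28 without rpl26a, and 0.49 and 0.57 without rpl26b. At an unadjusted p under 0.05 only 1 stress gene was higher, in mRNA, where 0.96% of all genes were, and 0 Gcn4 genes were lower in either assay. ARG4 differed by -0.68 in mRNA (SE 1.33) and -0.79 in footprints (SE 1.19), and GCN4 footprints by -0.61 (SE 0.818), all within 1 SE. Measured against the other 60S strains, which both comparisons share, the stress medians were 0.02 in both assays for the double deletion against -0.39 in mRNA and -0.46 in footprints for the single deletions, with 26 of 28 and 24 of 24 genes negative in the single deletions. The heterozygote had a stress median of -0.54 in mRNA with 28 of 28 negative. For Gcn4 genes the medians were -0.12 in mRNA and -0.07 in footprints for the double deletion, 0.18 and 0.24 for the single deletions, and 0.46 in mRNA for the heterozygote.

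Proteasome genes had 32 of 33 positive mRNA differences between double and single deletions (median 0.24) and 26 of 33 in footprints (0.19), and histone genes 8 of 8 in both assays (0.23 and 0.22). Per library, proteasome mRNA stood at 0.17 in the double deletion, -0.18 in rpl26a, 0.10 in rpl26b and -0.19 in the heterozygote, against -0.34 to 0.30 in the other 60S strains, so rpl26b lay with the double deletion and not with rpl26a. Without rpl26a the double minus single medians of proteasome genes were 0.12 in mRNA and 0.02 in footprints, and without rpl26b 0.39 and 0.30. Histone mRNA showed the same arrangement, at 0.07, -0.29, 0.01 and -0.25, against -0.48 to 0.18, and the histone medians were 0.08 in mRNA and 0.08 in footprints without rpl26a. Genes of hexose transport and sensing had 10 of 11 positive in footprints (median 0.39) and 11 of 11 in efficiency (0.27). HXT2, a high-affinity hexose transporter, had 1259 RPKM of footprints in the double deletion against 628 and 847 RPKM in the single deletions and 659 to 944 RPKM in the other 60S strains (0.79, SE 0.233, adjusted p = 0.977 by limma). Nuclear assembly factors of the 60S subunit had 47 of 55 negative in footprints (-0.14), and those of the 40S subunit 47 of 54 (-0.13).

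The whole-profile distance between 2 libraries, the root mean square log2 difference over the genes tested, placed the double deletion nearer to rpl26b than to rpl26a. The distance was 0.302 in mRNA and 0.277 in footprints between the double deletion and rpl26b, 0.411 and 0.371 between the double deletion and rpl26a, and 0.363 and 0.302 between rpl26a and rpl26b. The 6 pairs among Rpl26 mRNA libraries spanned 0.302 to 0.411 with a median of 0.384, the 40 pairs of a Rpl26 with another 60S library 0.308 to 0.529 (median 0.393), and the 45 pairs among the other 60S libraries 0.291 to 0.625 (median 0.399). The wild-type pair stood at 0.399 in mRNA and 0.296 in footprints. In footprints the 3 Rpl26 pairs spanned 0.277 to 0.371, the 30 mixed pairs 0.235 to 0.513 (median 0.355) and the 45 others 0.220 to 0.640 (median 0.382). By nearest neighbour in mRNA, 3 of 4 Rpl26 libraries had another Rpl26 library as their nearest. The double deletion was closest to rpl26b, then rpl40b (0.311) and rpl38 (0.318), rpl26b was closest to the double deletion, rpl26a was closest to rpl26b, and the heterozygote was closest to rpl38 (0.369). In footprints no Rpl26 library had another as its nearest: the double deletion was closest to rpl40b (0.269), rpl26b to rpl38 (0.235) and rpl26a to a wild-type library (0.281). The Rpl26 pairs thus lay within the span of the mixed pairs in footprints and reached just below its lower end in mRNA.

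**Figure D5:**
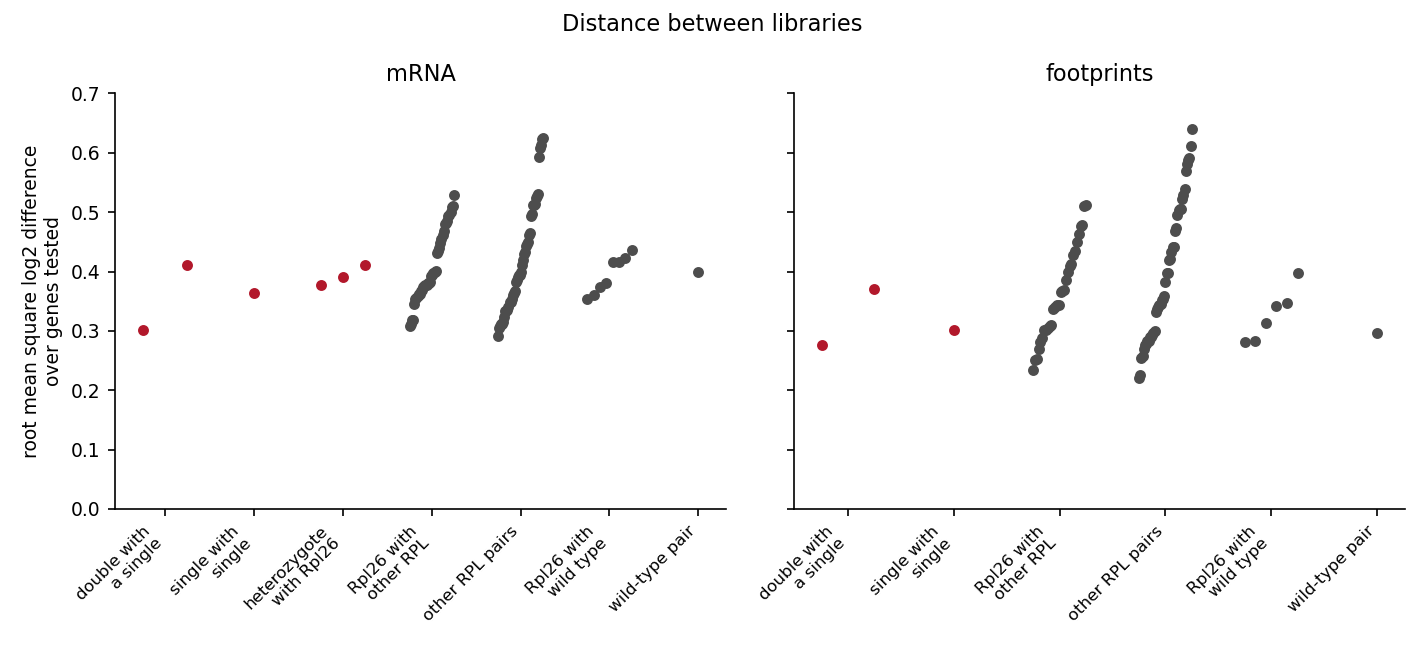
Root mean square log2 difference between pairs of libraries over the genes tested, by class of pair, for mRNA and footprints; each point is a pair and red points are pairs of Rpl26 libraries. The Rpl26 pairs (0.302 to 0.411 in mRNA, 0.277 to 0.371 in footprints) lie among the pairs of a Rpl26 with another 60S strain and the pairs of other 60S strains.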

How the data were processed

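Ribosome footprints and mRNA were measured in 25 strains (50 libraries). Per the submitters' processing notes, CASAVA, bcl2fastq 2.17 and Bowtie2 were used. Not given in the sources used here were genome build, annotation, strand setting and the handling of multiply matching reads. Each assay has 1 table with columns headed RPKM, but the deposited values behave as a signal equal to a library constant times reads times coding length less 60 nt. Whole reads were recovered from the value steps (tolerance 0.03 reads): 87.58% of 5812 open reading frames were whole in all libraries at the annotated length, and 19 of 5803 when lengths were taken from other genes. For 938 the length came from the values, 351 were at 0, 300 were left out (0.00058% of mRNA and 0.000137% of footprint signal), and 1 unnamed totals line per table was dropped. The R64 RefSeq gene table, matched by 5994 of 6679 open reading frames, gave names and lengths. RPKM was then recomputed. The test had been chosen for RPKM as deposited, and this recomputation is the departure.

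Genes whose mean reached 10 RPKM were tested with limma 3.58.1 (R 4.3.3, trend on) on log2(RPKM + 1). The two-sided threshold was a Benjamini-Hochberg adjusted p of 0.05. That scale understates changes of low genes. One fit held Rpl26, other 60S and wild-type groups, a second the Rpl26 strains apart. Footprint and mRNA libraries were paired by strain number for efficiency, which keeps strain as a block. Named genes were the 5 with the smallest p each way where none passed, and up to 4 members of the tunnel and nascent-chain lists. The members, the gene lists and the rules were chosen with earlier results of these data known. Wild-type replicates differed beyond counting error, with chi-square over degrees of freedom of 3.22 in mRNA and 10.4 in footprints. The fits were tested on simulated reads with a common mean profile, a fixed spread and the same change in every Rpl26 library. The simulation had no differences between strains, so it does not show how the fits perform on strains of differing genotype. Alternatives were other added values, minimum levels, scalings, voom, added small-subunit strains, and leaving out libraries. Genome positions were used only to look for reading frames that overlap the named genes. YCL041C, YEL045C, YIL141W, YJL215C, YMR013C-A and YMR316C-B are absent from the gene table, so whether they overlap other genes was not looked up; the other named genes overlap none in it.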

Additional observations from a re-analysis of the deposited data

Results flagged for a closer look

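In groups of 4 to 10 libraries, 86 sets of values of named genes were looked at for a library far from the rest of its group, and 2 stood out. For genes picked without regard to their values, chance gives about 1 in 20. Most of these genes were named for small p-values in the same data, so that rate does not apply to them. RSM27 mRNA in rpl26a, at 144 RPKM, lay apart from the other Rpl26 libraries, the nearest of which had 128 RPKM. YBL029C-A mRNA in the double deletion, at 84.5 RPKM, lay apart from the single deletions and the double heterozygote, the nearest of which had 29.1 RPKM. YBL029C-A had been named for this same difference between double and single deletions.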

How the results depend on the processing

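The 60 differences of single genes were named for small p-values and none passed the main test, so keeping sign and side was likely from the start. Of their values, all 443 under other settings and 889 of 890 with 1 library left out kept their direction and their side of the threshold. The exception was YCL041C in footprints, double against single, which passed without rpl26a (1.73). PTR2 ranged from -1.77 to -2.85 in mRNA and from -1.53 to -3.42 in footprints, the smallest footprint value with the mismatched heterozygote library included. For 8 medians of gene lists, all 119 values with 1 library left out and 76 of 78 under other settings kept their sign, and each moved by less than the median SE of the list's genes. The 2 others were footprint medians of Rpl26 against other 60S strains: nascent-chain factors (0.02) gave -0.04 with median-of-ratios scaling, and tunnel proteins (-0.05) gave 0.00 with the mismatched heterozygote library. By the SE measure, Gcn4 footprint medians of double against single of -0.08 without rpl26a and -0.62 without rpl26b both counted as unmoved. The 8 were a chosen set. They left out the Gcn4 genes in Rpl26 against other 60S strains, whose footprint median changed sign without rpl26a.

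Of 123 counts of genes past the test under other settings, 104 stayed within 1.5 times. In mRNA the count against wild type (1) and that of the heterozygote (3) were 0 and 0 with an added 5 RPKM, with a minimum of 30 RPKM, with voom and with small-subunit strains in the fit, and 3 and 5 with no minimum. With small-subunit strains in the fit, double against other 60S gave 2 in mRNA, and in footprints 3, with Rpl26 against other 60S giving 2; these were RPL26A and RPL26B, plus YCL041C. In footprints, double against other 60S (1) gave 3 with no minimum, 2 with a minimum of 30 RPKM, 2 with quantile scaling and 0 without double heterozygotes, and double against single gave 1 with no minimum. Efficiency against wild type gave 1 with an added 0.1 RPKM. Without the strain block, efficiency gave 0 in both comparisons. Median-of-ratios scaling of efficiency was added after the data were seen and gave 0.

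Leaving out 1 library gave, in mRNA, 0 to 0 for Rpl26 against other 60S, 0 to 4 for double against single, 0 to 2 for double and 0 to 3 for single against other 60S, 2 to 5 for the heterozygote and 0 to 4 against wild type (0 without rpl26a, rpl26b, the heterozygote or wild-type replicate 1, 4 without wild-type replicate 2). Among the calls gained were the deleted genes RPL26A and RPL26B when a single deletion was left out: double against single gave 4 in mRNA without rpl26b, and in footprints 3 without rpl26a and 2 without rpl26b. Over all libraries footprints gave 0 to 1, 0 to 3, 1 to 3, 0 to 1 and, against wild type, 0 to 2, and in efficiency 0 to 0, 0 to 2, 0 to 0, 0 to 2 and 0 to 1, in the same order without the heterozygote. The cause was not tested. With 1 double deletion library, 2 single deletions and strains of differing genotype as replicates, small differences are beyond these data, and low genes rest on few reads.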
